A study of Mus musculus with 12 samples.

Results

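The genes of the matrix proteases and of their inhibitors were followed in the heart RNA of mice that carry an expanded GGC repeat of NOTCH2NLC. They were taken as every gene whose symbol begins with Mmp, Adam or Timp and a number, or with Adamts, in the table of gene counts. This gave 84 genes of the 25171 loci in the table: 23 matrix metalloproteinases (Mmp), 33 ADAM genes, 19 ADAMTS genes, 5 ADAMTS-like genes (Adamtsl) and 4 tissue inhibitors of metalloproteinases (Timp).

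Matrix metalloproteinases are zinc enzymes that cut collagens, gelatin, proteoglycans and other proteins outside the cell, and most are made as inactive proenzymes. ADAM proteins sit in the cell membrane and many release the outer part of other membrane proteins, while ADAMTS proteins are secreted and process procollagen, proteoglycans and other matrix proteins, and the ADAMTS-like proteins are related but have no protease domain. The TIMP proteins bind the active site of these enzymes, and the balance of proteases and TIMPs shapes collagen turnover in the injured or failing heart.

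All 12 hearts came from mice with a loxP-stop-loxP-NOTCH2NLC-(GGC)98 cassette at Rosa26, with 3 hearts in each of 4 groups. EIIa-tg mice also carried EIIa-Cre (E2a in the labels), which acts in all tissues, and were collected at day 30 beside EIIa-ctl littermates without Cre. The Myh6 mice carried Myh6-creERT2, a Cre that tamoxifen activates and that the cardiomyocyte promoter Myh6 drives. They received 3 injections from day 60, of tamoxifen at 75 mg/kg for Myh6-tg or of corn oil for Myh6-ctl, and were collected at day 90, so that tamoxifen itself and the transgene cannot be told apart in this pair. The labels give both Myh6 groups 1 genotype, and the genotype labels of EIIa-tg replicates 2 and 3 differ from that of replicate 1, so these hearts were grouped by their titles. Strain is not given in the sources used here. Esr1, the estrogen receptor gene, part of which is used in creERT2, went against a shared genotype: it had 1030 to 2330 CPM in the hearts labelled Myh6-ctl, 1.00 to 2.52 CPM in those labelled Myh6-tg, and 0.408 to 1.23 CPM in the EIIa hearts. Group names are therefore those of the labels, in every comparison that uses the Myh6 hearts. Whatever underlies the Esr1 difference also cannot be told apart from tamoxifen and the transgene in the Myh6 pair.

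Each heart had 38343106 to 50969834 counts. CPM here are the usual depth-normalised counts with a further scaling by TMM, which takes most genes as unchanged, and 3 counts in a heart correspond to 0.0568 to 0.0815 CPM. The scaling mattered, because mitochondrially encoded genes took 15.5% to 18.6% of the reads of Myh6-tg hearts, 31.8% to 38.3% of those of Myh6-ctl, 28.5% to 32.3% of those of EIIa-tg and 34.2% to 36.7% of those of EIIa-ctl hearts. Without it the median gene was 0.41 higher on the log2 scale in Myh6-tg than in Myh6-ctl hearts and 0.22 higher in EIIa-tg than in EIIa-ctl hearts, and all changes are given relative to that shift. Y-linked genes (Ddx3y, Eif2s3y, Kdm5d, Uty) summed to 4224 to 7307 counts in the hearts numbered 1 and to 2 counts or fewer in all others, which gave each group 1 such heart. Cardiomyocyte markers were abundant in every heart (8115 to 41854 CPM summed over 6 genes), in keeping with the heart label. Libraries came from whole hearts, in which fewer cells of a type and less RNA per cell cannot be told apart.

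Of the 84 genes, 58 had at least 3 counts in all 3 hearts of at least 1 group, and 50 did so in all 4 groups. By group the number was 56 in Myh6-tg, 53 in Myh6-ctl, 55 in EIIa-tg and 52 in EIIa-ctl hearts. All 4 Timp and all 5 Adamtsl genes were detected in every group. The Mmp genes rose from 14 detected in each control group to 16 in EIIa-tg and 17 in Myh6-tg, while 14 ADAM genes were detected in each of the 4 groups. The ADAMTS genes numbered 15 in EIIa-ctl and 16 in each other group. No count fell on 16 genes in any heart: Mmp1a, Mmp1b, Mmp7, Mmp20 and 12 ADAM genes (Adam6a, Adam7, Adam18, Adam20, Adam24, Adam25, Adam26a, Adam26b, Adam28, Adam29, Adam34 and Adam39). Mmp10, a stromelysin, had 0, 42 and 48 counts in the Myh6-tg hearts, 4 counts in Myh6-ctl replicate 2 and none elsewhere. With all hearts kept it did not pass the filter on low counts. Without Myh6-tg replicate 1 it passed, and edgeR's test called it higher in Myh6-tg than in Myh6-ctl hearts (log2 fold change 4.74, adjusted p = 0.0346). With all hearts kept, 57 genes passed that filter in at least 1 comparison and were tested.

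Levels of different genes were compared on FPKM, which divide by transcript length, scaled by the same TMM factors. Over the 12 hearts the highest mean belonged to Timp3 (83.1 FPKM), followed by Mmp2 (77.4) and Timp2 (55.6). Below came Adamtsl5 (32.5), Adam15 (26.7), Adam9 (23.4), Adamts1 (16.9), Mmp14 (15.5), Mmp3 (15.5) and Timp1 (13.3), which completed the 10 highest. Timp4 (9.82) was not next in order and is listed because all Timp genes were named. In EIIa-ctl hearts Timp3 had 69.9 ± 4.83 FPKM (SD, n = 3), Timp2 39.9 ± 4.21 and Mmp2 35.3 ± 7.17, so that an inhibitor led and the ranges of Timp2 and Mmp2 overlapped. In Myh6-tg hearts the order had changed, with Mmp2, the gelatinase of fibroblasts and other mesenchymal cells, at 175 ± 40.0 FPKM, above Timp3 at 95.3 ± 17.7 and Timp2 at 84.8 ± 6.29. Timp1 and Mmp3 stood near the bottom of this list in EIIa-ctl hearts, at 1.76 ± 1.32 and 0.932 ± 0.573 FPKM, and reached 26.5 ± 3.79 and 50.3 ± 5.55 FPKM in Myh6-tg hearts.

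Summed by family, the Mmp genes had 64.3 to 75.0 FPKM in EIIa-ctl against 89.4 to 131 in EIIa-tg, and 73.3 to 84.1 in Myh6-ctl against 268 to 338 in Myh6-tg hearts. The Timp genes had 113 to 125 FPKM in EIIa-ctl against 146 to 172 in EIIa-tg, and 102 to 210 in Myh6-ctl against 194 to 233 in Myh6-tg hearts. The summed Timp level was therefore 1.61 to 1.94 times the summed Mmp level in EIIa-ctl and 1.32 to 1.64 times in EIIa-tg hearts, and it was 1.21 to 2.62 times in Myh6-ctl and 0.689 to 0.780 times in Myh6-tg hearts. In Myh6-tg hearts alone the Mmp sum was above the Timp sum. This ratio is a description of transcripts over a few dominant genes, carries no test, and does not measure enzyme activity. The ADAMTS genes summed to 68.0 to 74.8 FPKM in Myh6-tg hearts and to 25.9 to 48.0 FPKM in the other 9 hearts.

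**Figure D1:**
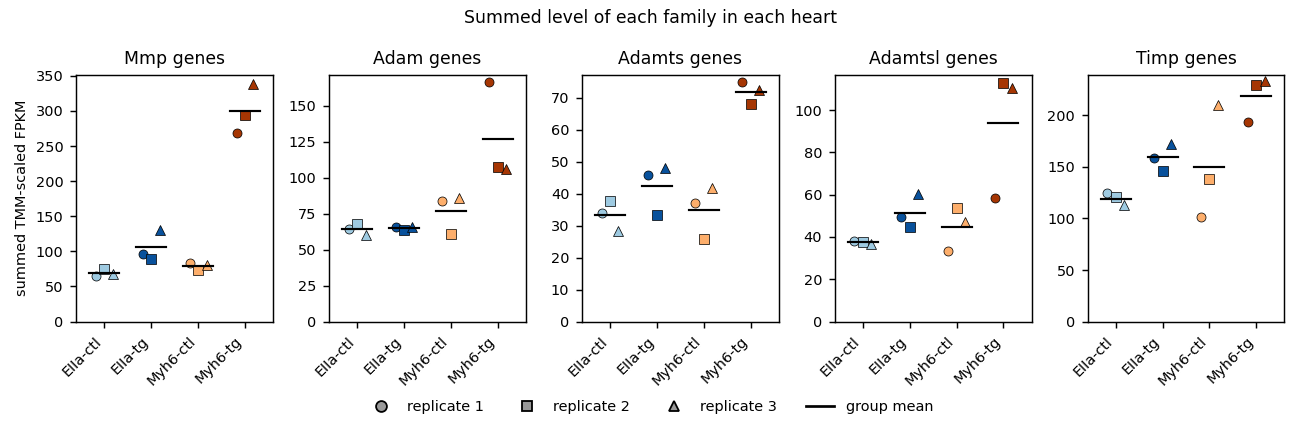
Summed TMM-scaled FPKM of the Mmp, Adam, Adamts, Adamtsl and Timp genes in each heart (linear axes from 0), with the 4 groups along each horizontal axis, point shapes for replicates and a line at each group mean. The 3 Myh6-tg hearts lie above all other hearts for the Mmp genes (268 to 338 FPKM), the Adam genes (106 to 166) and the Adamts genes (68.0 to 74.8), whereas for the Timp genes their range (194 to 233) overlaps that of Myh6-ctl (102 to 210).

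The promoters of Mmp3 and Timp1 are shown because these were the protease and the inhibitor that rose in both models and were called in the Myh6 model whichever heart was left out. Each is the 250 bases before the RefSeq transcription start (GRCm38.p6), 5′ to 3′ on the gene's strand. Capitals mark matches on either strand to the AP-1 element, searched as TGANTCA. They also mark matches to an ETS element, for which the letters AGGAAG were used. The last motif marked was the TATA box, searched with the letters TATAAA.
Mmp3 promoter, chr9:7445572-7445821 (+): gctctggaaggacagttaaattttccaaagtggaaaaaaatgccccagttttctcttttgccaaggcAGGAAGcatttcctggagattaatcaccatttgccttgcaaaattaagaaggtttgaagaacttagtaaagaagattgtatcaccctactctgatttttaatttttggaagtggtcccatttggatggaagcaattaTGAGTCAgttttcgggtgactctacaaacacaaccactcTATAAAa
Timp1 promoter, chrX:20869916-20870165 (+): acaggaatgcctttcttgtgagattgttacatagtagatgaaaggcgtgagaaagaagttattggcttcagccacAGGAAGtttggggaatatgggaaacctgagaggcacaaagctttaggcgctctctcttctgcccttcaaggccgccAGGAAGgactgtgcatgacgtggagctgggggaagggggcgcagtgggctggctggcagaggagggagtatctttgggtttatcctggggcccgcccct
The Mmp3 promoter held all 3 elements, with the first base of the AP-1 match 46 bases and that of the TATA match 7 bases before the start, and the Timp1 promoter held the ETS element only. The AP-1 element was found in 6.75% of all 32851 promoter windows of the RefSeq table (each the same 250 bases before the start), the ETS element in 29.5% and the TATA box in 12.4%, and none of the matches shown overlaps another. Among the 41 windows of 37 tested members, 9.76% held the AP-1 element, 34.1% the ETS element and 9.76% the TATA box. A match is a description of letters and says nothing of binding in these hearts.

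The first comparison asked which of these genes differ when the repeat is expressed in all tissues, at day 30. The inhibitor Timp1 and the proteases Adam8, Mmp12, Mmp3 and Mmp19 were higher in EIIa-tg hearts, and the membrane protease Mmp15 was lower. In edgeR's quasi-likelihood test with Benjamini-Hochberg adjustment over all genes, 54 members were tested, of which 10 rose and 5 fell with adjusted p-values under 0.05. Of all 14908 genes tested, 8.65% were higher and 8.30% lower. The median log2 fold change of the 54 members was 0.30 and 37 were positive, against a median of 0.02 over all genes. The calls were 5 higher and 2 lower of 14 Mmp genes, 3 higher and 2 lower of 15 ADAM genes, 1 lower of 16 ADAMTS genes, 1 higher of 5 Adamtsl genes and 1 higher of 4 Timp genes. In edgeR no member and 0% of all genes tested passed the study's threshold (adjusted p under 0.01, log2 fold change of at least 1). In that test 27 members and 5204 of all 14908 genes had an unadjusted p under 0.05. DESeq2, the tool that the study used with this threshold, called 21 of 63 members at an adjusted p under 0.05. It also called 18.2% of the 19471 genes with a p-value. At the study's threshold DESeq2 called 8 (Adam8, Mmp3, Mmp12, Mmp19 and Timp1 higher, Adam11, Mmp13 and Mmp15 lower) and 4.96% of the 16866 genes with an adjusted p.

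Timp1 (ENSMUSG00000001131, GRCm38 X:20870166-20874735), the inhibitor best known as an induced gene of fibrosis and inflammation, had 0.933, 2.92 and 0.870 CPM in the EIIa-ctl hearts and 18.9, 6.16 and 23.6 CPM in the EIIa-tg hearts. Every EIIa-tg heart was above every control, and replicate 2 was the lowest of the 3. The log2 fold change was 3.36 (standard error 0.60, adjusted p = 0.0178). The other 3 inhibitors were far more abundant and were not called. Timp3, which binds to the matrix and also inhibits ADAM17, had 316 to 361 CPM in EIIa-ctl and 399 to 430 CPM in EIIa-tg hearts, ranges that did not overlap (log2 fold change 0.31, standard error 0.10, adjusted p = 0.0682). Timp2, which also takes part in the activation of pro-MMP2 by MMP14, had 142 to 169 and 154 to 190 CPM, and Timp4, the inhibitor known for its high level in heart, had 30.4 to 62.2 and 34.9 to 54.7 CPM. Both overlapped between groups, with log2 fold changes of 0.20 (standard error 0.12) and 0.10 (standard error 0.27).

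Mmp3 (stromelysin-1, ENSMUSG00000043613, GRCm38 9:7445822-7455975), which cuts proteoglycans and activates other proenzymes, had 2.87, 0.808 and 1.49 CPM in EIIa-ctl and 23.8, 4.05 and 11.8 CPM in EIIa-tg hearts. The groups did not overlap, and again EIIa-tg replicate 2 was nearest to the controls. The log2 fold change was 2.91 (standard error 0.65, adjusted p = 0.0264). Mmp12, the macrophage elastase, had 1.00, 1.62 and 0.326 CPM in EIIa-ctl and 14.2, 5.998 and 14.5 CPM in EIIa-tg hearts (log2 fold change 3.54, standard error 0.53, adjusted p = 0.0160). Adam8, an ADAM of myeloid cells, had 0.387, 0.547 and 0.326 CPM in EIIa-ctl and 6.804, 2.68 and 9.84 CPM in EIIa-tg hearts (log2 fold change 3.92, standard error 0.51, adjusted p = 0.0135). Both of these myeloid-associated genes were above every control in each EIIa-tg heart. Mmp19, a secreted metalloproteinase, had 1.79 to 2.74 CPM in EIIa-ctl and 6.93 to 11.2 CPM in EIIa-tg hearts, and its log2 fold change was 1.95 (standard error 0.25, adjusted p = 0.0135). Mmp19 shares 22.3% of its exonic bases with Tmem198b on the opposite strand, and as the use of strand in counting is not given in the sources used here, reads of both cannot be told apart there.

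Smaller rises were called for the membrane-bound collagenase Mmp14 (log2 fold change 0.87, adjusted p = 0.0310), from 12.01 to 17.0 CPM in EIIa-ctl to 19.4 to 33.8 CPM in EIIa-tg hearts, and for Mmp23 (0.94, adjusted p = 0.0180), from 6.68 to 7.29 to 11.1 to 16.8 CPM. Adam22 and Adam23, ADAMs without protease activity that bind LGI proteins at synapses, rose by 0.67 (adjusted p = 0.0251) and 0.92 (adjusted p = 0.0463). Adamtsl5, a fibrillin-binding ADAMTS-like protein, rose by 0.67 on the log2 scale (adjusted p = 0.0275). The change of Mmp2, the most abundant protease, was not called (0.74, standard error 0.23, adjusted p = 0.0568), with 90.7 to 135 CPM in EIIa-ctl and 142 to 254 CPM in EIIa-tg hearts. Its groups did not overlap, as was also so for Adamts2, a procollagen N-proteinase (25.7 to 42.7 and 43.9 to 77.1 CPM, log2 fold change 0.81, adjusted p = 0.0620).

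Mmp15, a membrane-bound metalloproteinase (MT2-MMP), had the highest level in EIIa-ctl hearts, by FPKM, of the 5 members that fell. It had 88.1, 72.1 and 95.3 CPM in EIIa-ctl and 35.5, 51.5 and 27.6 CPM in EIIa-tg hearts, so that all 3 transgenic hearts were below all 3 controls (log2 fold change -1.16, standard error 0.22, adjusted p = 0.0194). Adam11, another catalytically inactive ADAM, fell from 9.37 to 11.2 to 3.25 to 6.19 CPM (-1.04, adjusted p = 0.0281). Adamts9, a versicanase, fell from 18.4 to 24.8 to 8.71 to 15.2 CPM (-0.88, adjusted p = 0.0336), and 9.18% of its exonic bases lie on A730049H05Rik of the opposite strand. Adam10, the sheddase of Notch and many other membrane proteins, fell by 0.32 on the log2 scale (standard error 0.09, adjusted p = 0.0470), from 55.3 to 59.7 CPM to 43.7 to 48.2 CPM. The collagenase Mmp13 fell from 1.39 to 1.72 to 0.477 to 0.740 CPM (-1.49, adjusted p = 0.0339). Adam17, the sheddase of TNF and EGF receptor ligands, had 31.1 to 32.9 CPM in EIIa-ctl and 24.0 to 30.6 CPM in EIIa-tg hearts and was not called (-0.24, adjusted p = 0.194). Adam15, the most abundant ADAM gene by FPKM, had 63.2 to 78.3 CPM in EIIa-ctl and 66.6 to 75.6 CPM in EIIa-tg hearts (0.00, standard error 0.10).

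Markers of other cells moved with these values. All 6 macrophage markers rose in EIIa-tg hearts (summed 148 to 220 CPM in EIIa-ctl and 287 to 386 CPM in EIIa-tg), as did 2 of 5 neutrophil markers tested (summed 2.14 to 2.55 and 5.40 to 6.99 CPM) and 2 of 6 fibroblast markers (1042 to 1327 and 1704 to 2534 CPM). Of the 6 endothelial markers 3 fell (942 to 1079 and 752 to 828 CPM), and of the 6 cardiomyocyte markers Ryr2 fell (summed 34377 to 41854 and 16506 to 30340 CPM). EIIa-tg replicate 2, the heart nearest to the controls for Timp1 and Mmp3, had the highest cardiomyocyte sum of its group. It was 30340 CPM against 16506 and 17038 CPM in replicates 1 and 3. The fibroblast sum of replicate 2 was the lowest, 1704 CPM against 2084 and 2534 CPM. Within it Dcn, Pdgfra and Tcf21 were lower than in replicate 1, while Col1a1, Dpt and Lum were higher. The sum of activated fibroblast markers was highest in replicate 2, 483 CPM against 224 and 376 CPM. The part of these shifts in the protease values was not tested. The calls of this comparison depended on single hearts, as did those of all genes. Leaving out EIIa-ctl replicate 1, EIIa-ctl replicate 3 or EIIa-tg replicate 1 left 0 members called (0%, 0.0065% and 0% of all genes). Leaving out EIIa-tg replicate 3 left 2 (0.877%), leaving out EIIa-ctl replicate 2 left 9 (11.7%), and leaving out EIIa-tg replicate 2 gave 23 (26.6%). The signs of the 15 calls held with each heart left out. Their log2 fold changes were 2.99 to 4.15 for Timp1, 2.18 to 3.51 for Mmp3 and 3.48 to 4.29 for Adam8. With the replicate number as a block, 0 members and 0.00671% of all genes were called.

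**Figure D2:**
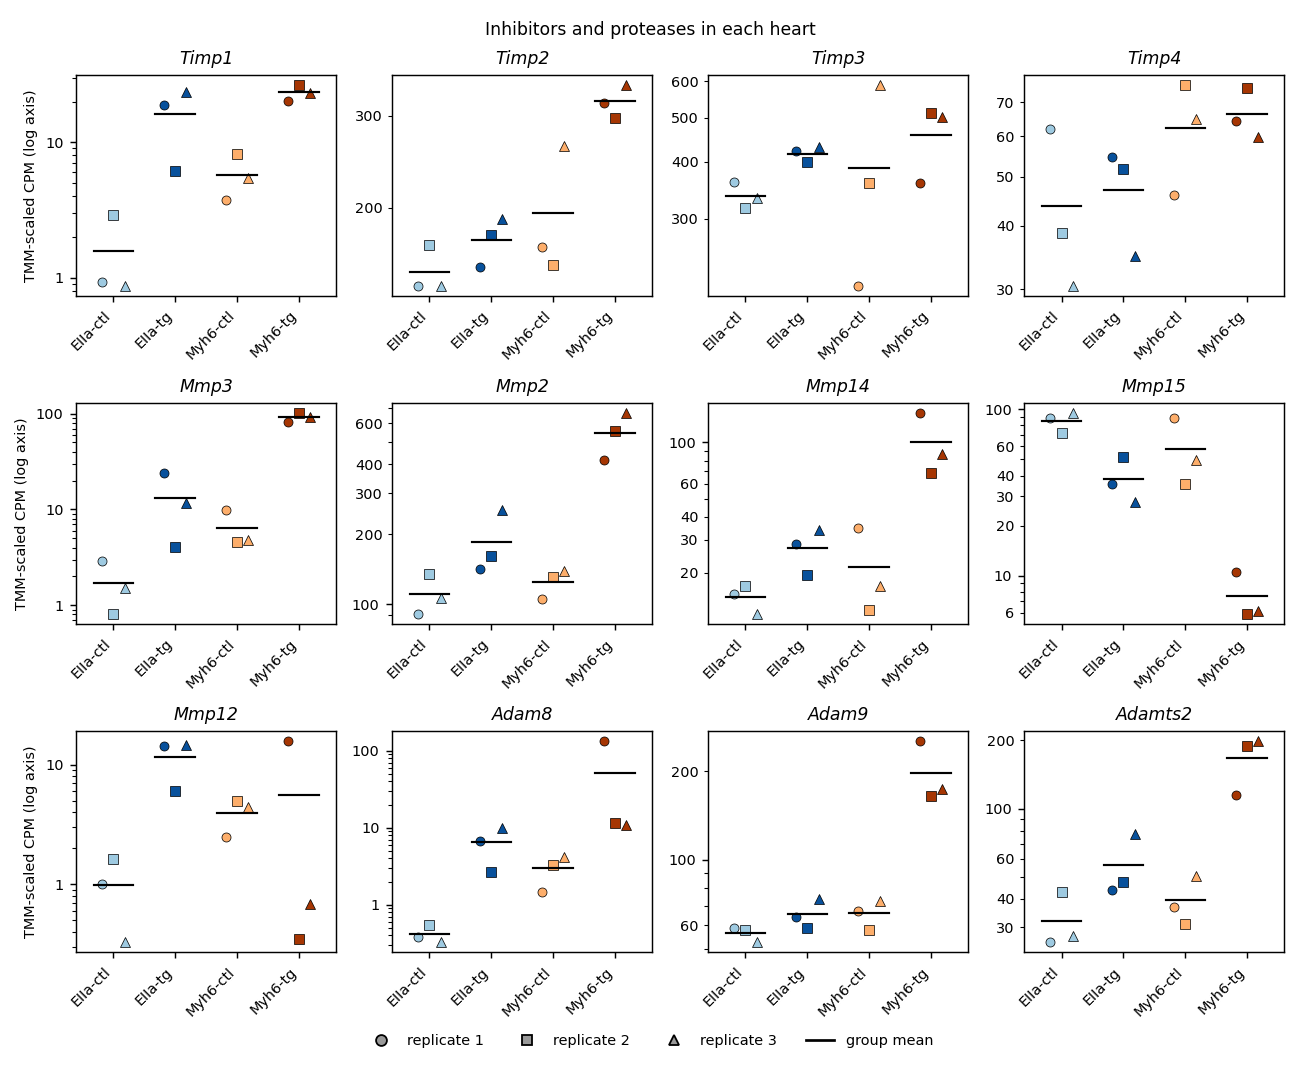
TMM-scaled CPM (log axes) of the 4 Timp genes and 8 proteases in each heart, by group, with point shapes for replicates and a line at each group mean. Timp1 and Mmp3 are higher in each transgenic group than in its own controls without overlap, Mmp15 is lower, and Mmp12 and Adam8 in Myh6-tg replicate 1 (15.8 and 134 CPM) stand far from the other 2 Myh6-tg hearts.

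The second comparison took the hearts labelled Myh6-tg against those labelled Myh6-ctl at day 90. By the labels, the repeat was switched on in adult cardiomyocytes of the first group only. The proteases Mmp3, Mmp2, Mmp14, Adamts2 and Adam9 and the inhibitor Timp1 were higher, and Mmp15 was lower. Of 56 members tested 15 were higher and 2 lower, where 8.96% of all 15298 genes tested were higher and 9.38% lower. The median log2 fold change of the members was 0.53 and 39 were positive, against a median of 0.03 over all genes. By family 6 of 17 Mmp genes rose and 1 fell, 3 of 14 ADAM genes rose and 1 fell, 4 of 16 ADAMTS genes, 1 of 5 Adamtsl genes and 1 of 4 Timp genes rose. The study's threshold was passed by 7 members and by 3.97% of all genes in edgeR's test, and by 15 members and 12.1% of the 17711 genes with an adjusted p in DESeq2. With the replicates as a block, 19 members and 20.9% of all genes were called. Adam19 (-0.78, adjusted p = 0.0248), Adamts12 (1.07, adjusted p = 0.0499), Adamtsl5 and Timp2 were gained, and Adam8 and Adam22 were lost.

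Mmp3 had 9.77, 4.56 and 4.76 CPM in Myh6-ctl and 81.7, 102 and 92.7 CPM in Myh6-tg hearts. The 3 Myh6-tg hearts lay close together and far above the controls. The log2 fold change was 3.86 (standard error 0.34, adjusted p = 0.00157). Mmp2 (GRCm38 8:92827291-92853420) had 105, 131 and 140 CPM in Myh6-ctl and 416, 554 and 666 CPM in Myh6-tg hearts (log2 fold change 2.12, standard error 0.25, adjusted p = 0.00354). Mmp14 (GRCm38 14:54431612-54445364), which activates pro-MMP2 at the cell surface, had 35.0, 12.6 and 16.9 CPM in Myh6-ctl and 144, 68.5 and 87.1 CPM in Myh6-tg hearts (log2 fold change 2.22, standard error 0.44, adjusted p = 0.0150). Both partners of this activation step, the proenzyme and its activator, were thus above every control in all 3 hearts, and Timp2, the inhibitor that forms the complex with them, is described next.

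Timp1 had 3.73, 8.15 and 5.41 CPM in Myh6-ctl and 20.3, 26.7 and 23.0 CPM in Myh6-tg hearts, without overlap (log2 fold change 2.02, standard error 0.30, adjusted p = 0.00680). Timp2 (GRCm38 11:118301069-118355740) had 168, 155 and 263 CPM in Myh6-ctl and 318, 298 and 344 CPM in Myh6-tg hearts. These groups did not overlap either, yet the call missed the threshold (0.71, standard error 0.24, adjusted p = 0.0805), was made with the replicate number as a block (adjusted p = 0.0405), and was made without Myh6-ctl replicate 3, the highest control (0.97, adjusted p = 0.0385). Timp3 (GRCm38 10:86300372-86349506) had 213, 358 and 591 CPM in Myh6-ctl and 360, 512 and 502 CPM in Myh6-tg hearts, and Timp4 had 46.0 to 75.9 and 59.9 to 74.7 CPM. The controls spanned the whole range of the Myh6-tg hearts for both, and the log2 fold changes were 0.24 (standard error 0.37) and 0.09 (standard error 0.22). The Timp3 gene shares 21.3% of its exonic bases with Syn3 on the opposite strand, which had 0 to 22 counts in a heart.

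Among the ADAMTS genes, Adamts2 (GRCm38 11:50602084-50807573) had 36.8, 30.9 and 50.6 CPM in Myh6-ctl and 115, 189 and 198 CPM in Myh6-tg hearts. All 3 Myh6-tg hearts were higher, replicate 1 least so (log2 fold change 2.09, standard error 0.29, adjusted p = 0.00527). Adamts5, an aggrecanase and versicanase, had 25.4 to 44.7 and 69.1 to 95.1 CPM (1.25, adjusted p = 0.0166), and Adamts1, which cuts versican, had 49.1 to 79.1 and 104 to 173 CPM (1.05, adjusted p = 0.0347). Adamts6 had 2.58 to 3.75 and 5.99 to 8.88 CPM (1.34, adjusted p = 0.0181). Adamtsl2, a matrix protein that binds fibrillin and is linked to TGF-beta availability, had 21.8, 28.3 and 32.7 CPM in Myh6-ctl and 49.4, 150 and 153 CPM in Myh6-tg hearts (log2 fold change 2.09, standard error 0.42, adjusted p = 0.0160). Its rise was thus smallest in Myh6-tg replicate 1. Adamtsl5 had 35.3 to 66.0 and 59.9 to 118 CPM, with overlap, and was not called (0.98, adjusted p = 0.0729, and 0.0147 with the replicates as a block).

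Of the ADAM genes, Adam9 (GRCm38 8:24949611-25016927), a broadly expressed sheddase, was both abundant and uniformly higher, with 67.1, 57.8 and 72.4 CPM in Myh6-ctl and 254, 165 and 175 CPM in Myh6-tg hearts (log2 fold change 1.59, standard error 0.22, adjusted p = 0.00561). Adam8 had 1.45, 3.26 and 4.21 CPM in Myh6-ctl and 134, 11.5 and 10.9 CPM in Myh6-tg hearts. All 3 were above the controls, but replicate 1 held most of the signal. The log2 fold change was 4.12 (standard error 1.07, adjusted p = 0.0347), it was 1.90 without Myh6-tg replicate 1 (adjusted p = 0.0155), and with the replicate block it was 2.93 and not called (adjusted p = 0.0931). Adam22 rose by 0.78 (adjusted p = 0.0355, and 0.0552 with the replicates as a block). The 2 main sheddases were not called: Adam10 had 36.4 to 60.3 and 47.7 to 62.9 CPM (0.19, adjusted p = 0.592) and Adam17 25.7 to 46.6 and 22.8 to 28.2 CPM (-0.46, adjusted p = 0.220). Adam15 had 61.5 to 96.9 and 91.8 to 118 CPM (0.34, adjusted p = 0.316).

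Mmp23 rose from 7.28 to 14.1 to 15.1 to 39.0 CPM (1.44, adjusted p = 0.0396) and Mmp19 from 4.17 to 7.25 to 9.59 to 19.8 CPM (1.19, adjusted p = 0.0460). Mmp24, a membrane-type metalloproteinase best known in neurons, rested on few reads, with 7, 0 and 0 counts in Myh6-ctl and 167, 38 and 32 counts in Myh6-tg hearts (adjusted p = 0.0445). It shares 13.6% of its exonic bases with BC029722 on the opposite strand, which had 661 to 1058 counts in a heart. Mmp15 had 88.8, 35.8 and 49.7 CPM in Myh6-ctl and 10.5, 5.88 and 6.15 CPM in Myh6-tg hearts (log2 fold change -2.95, standard error 0.40, adjusted p = 0.00502). Each of them was far below the lowest control. Adam11 fell from 11.0 to 12.8 to 3.58 to 4.79 CPM (-1.52, standard error 0.22, adjusted p = 0.00575).

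Mmp12 was the member that a single heart decided. It had 2.49, 4.996 and 4.40 CPM in Myh6-ctl and 15.8, 0.347 and 0.681 CPM in Myh6-tg hearts, so that replicate 1 was above and replicates 2 and 3 below every control. The log2 fold change was 0.49 (standard error 1.19, adjusted p = 0.811), and it was -2.94 without Myh6-tg replicate 1 (adjusted p = 0.00756). This heart also had the highest macrophage marker sum of its group, 733 CPM against 354 to 368 CPM in replicates 2 and 3, the highest cardiomyocyte marker sum, 27691 CPM against 8115 to 10630 CPM, and the lowest sum of activated fibroblast markers, 1171 CPM against 3470 to 3774 CPM. It was the heart with Y-linked counts, as replicate 1 was in each group. The part of these differences in the Adam8 and Mmp12 values was not tested.

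Over the whole group, 4 of 6 activated fibroblast markers rose (summed 269 to 381 CPM in Myh6-ctl and 1171 to 3774 CPM in Myh6-tg). So did 2 of 6 fibroblast markers (1413 to 1799 and 1475 to 3372 CPM), and 3 of 6 cardiomyocyte markers fell (26658 to 34862 and 8115 to 27691 CPM). Of the fibroblast markers, Lum and Dpt had lower means in Myh6-tg (139 against 241 and 103 against 129 CPM) without a call. Col1a1, Dcn, Pdgfra and Tcf21 had higher means. No macrophage or neutrophil marker was called (266 to 383 and 354 to 733 CPM, and 2.59 to 18.3 and 7.80 to 24.3 CPM). Whether these shifts contribute to the protease values was not tested. With 1 heart left out, 8 to 19 members were called, fewest without Myh6-ctl replicate 2 (8), Myh6-ctl replicate 3 (9), Myh6-ctl replicate 1 (10) or Myh6-tg replicate 3 (10). The shares of all genes called without these hearts were 11%, 10.3%, 5.01% and 6.17%, against 26.7% without Myh6-tg replicate 1. Mmp2, Mmp3, Mmp15, Adam9, Adam11, Adamts2 and Timp1 were called in all 6 fits with 1 heart left out.

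**Figure D3:**
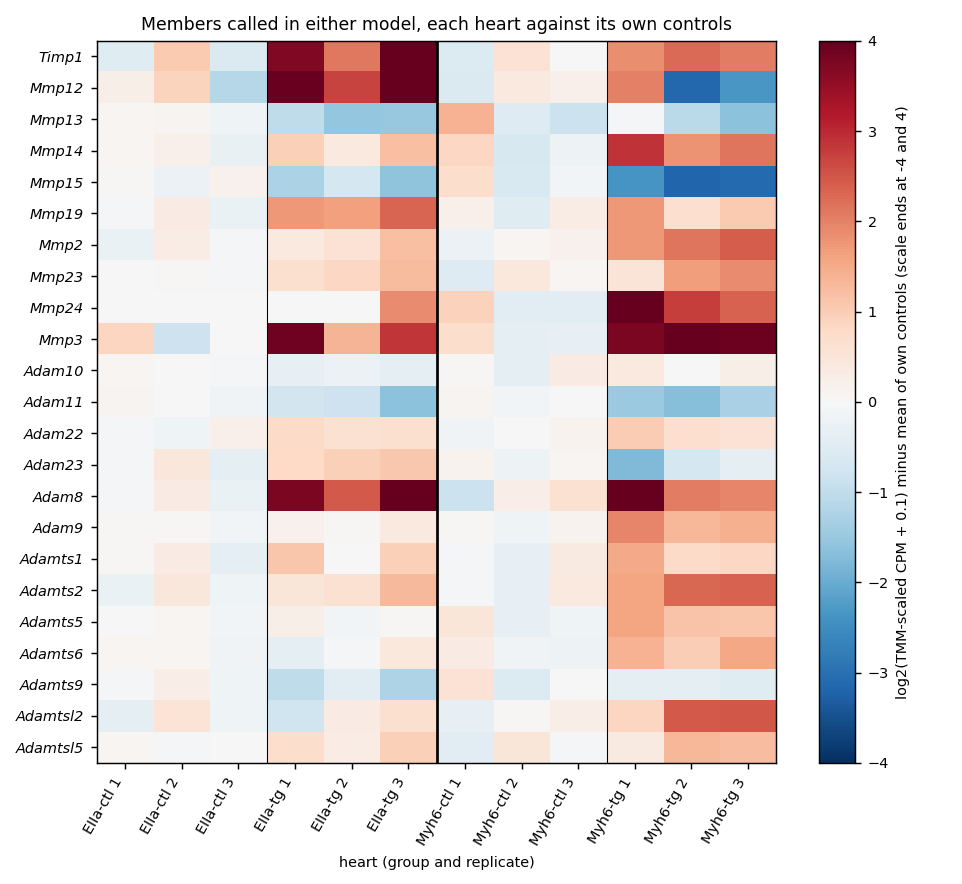
Colour shows log2(TMM-scaled CPM + 0.1) minus the mean of the heart's own control group, for the 23 members called in either model (vertical axis) in each of the 12 hearts (horizontal axis), on a scale that ends at -4 and 4. Mmp3 and Timp1 are red in all 6 transgenic hearts and Mmp15 and Adam11 blue in all 6, while Mmp12 is red in Myh6-tg replicate 1 and blue in replicates 2 and 3.

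Both models shared part of these changes, although age, driver and treatment differ and the control hearts are separate. Of 53 members tested in both, 9 were called in both, which was 60% of the 15 called in the EIIa model and 56.25% of the 16 called in the Myh6 model. The share of all genes was 37.3% and 34.3%. Adam8, Adam22, Mmp3, Mmp14, Mmp19, Mmp23 and Timp1 were higher in both, Adam11 and Mmp15 were lower in both, and no member was called in opposite directions. Opposite calls were rare over all genes too, 19 of the 933 called in both. With 1 heart left out of the Myh6 pair, Mmp19 was called in 0 of 6 fits, Adam22 and Mmp23 in 1, Adam8 in 3 and Mmp14 in 5. The other 4 were called in all 6. With the replicate number as a block, 0 members were called in the EIIa model.

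**Figure D4:**
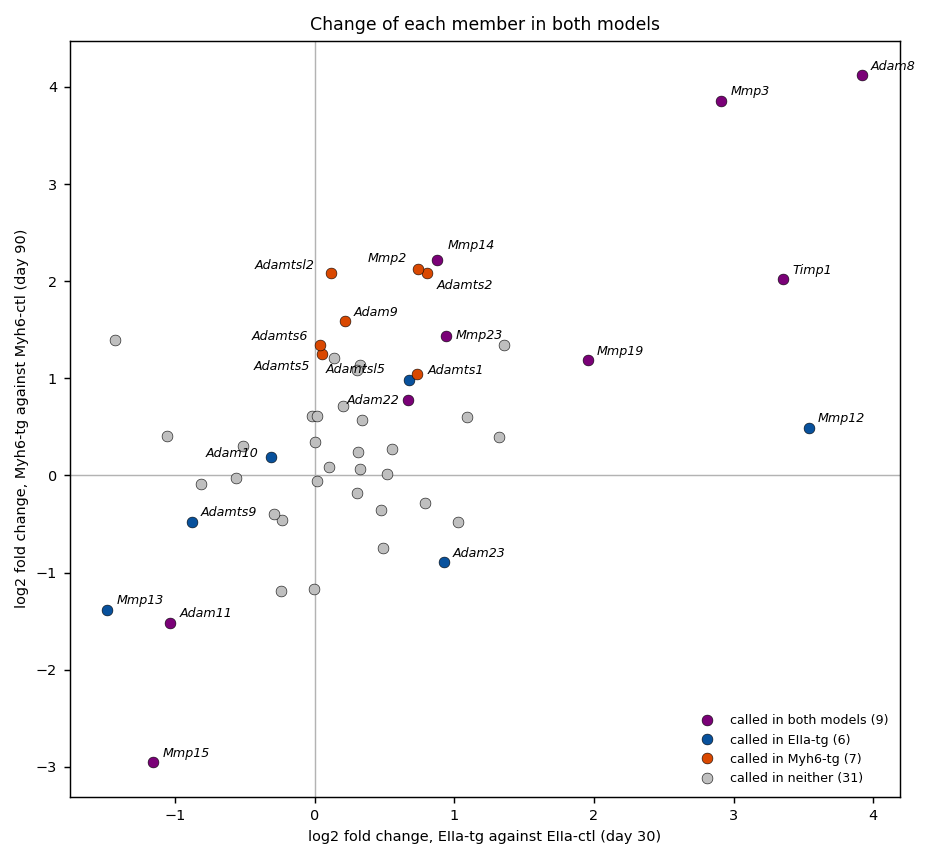
Log2 fold change of each of the 53 members tested in both models, in EIIa-tg against EIIa-ctl (horizontal axis) and in Myh6-tg against Myh6-ctl (vertical axis), coloured by where it was called. The 9 genes called in both models lie in the upper right (7 genes) and lower left (2 genes), and Mmp12 and Adam23 were called in EIIa-tg hearts without a call in Myh6-tg hearts.

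The difference between the models' changes was tested directly, as the change in Myh6-tg minus the change in EIIa-tg hearts. Of 57 members 3 were called, all higher in the Myh6 model, where 1.65% of all 15929 genes were higher and 2.27% lower. Adam9 changed by 1.59 in the Myh6 model and by 0.21 in the EIIa model (52.5 to 58.7 CPM in EIIa-ctl, 58.7 to 73.8 CPM in EIIa-tg), a difference of 1.37 (standard error 0.24, adjusted p = 0.0112). Adamts5 changed by 1.25 and by 0.05, a difference of 1.196 (standard error 0.29, adjusted p = 0.0429). Adamts8, a secreted ADAMTS, was called in neither model by itself. It had 1.66, 1.85 and 1.77 CPM in EIIa-ctl and 0.764, 0.914 and 0.267 CPM in EIIa-tg hearts, but 0.633, 1.22 and 1.37 CPM in Myh6-ctl and 3.24, 2.56 and 2.69 CPM in Myh6-tg hearts. Every EIIa-tg heart was below its controls and every Myh6-tg heart above its own, and the difference of 2.83 (standard error 0.62, adjusted p = 0.0267) passed the test, but with the replicates as a block it was 3.01 and not called (adjusted p = 0.0574).

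For the remaining genes no difference was called by this test, whether they were called in 1 model, in both or in neither. The difference was 1.38 for Mmp2 (standard error 0.35, adjusted p = 0.0506, with the replicate block 0.0392), -1.80 for Mmp15 (standard error 0.48, adjusted p = 0.0591, with the replicate block 0.0367), -1.82 for Adam23 (adjusted p = 0.0677) and 1.28 for Adamts2 (adjusted p = 0.111). All 4 of these were called without Myh6-tg replicate 1, Mmp2 at 1.53 (adjusted p = 0.0137), Mmp15 at -2.12 (adjusted p = 0.0157), Adam23 at -1.51 (adjusted p = 0.0327) and Adamts2 at 1.48 (adjusted p = 0.0288), and so were Mmp12 (-6.48, adjusted p = 0.00134), Adamtsl2 (2.33, adjusted p = 0.0118) and Adam19 (-1.62, adjusted p = 0.0203). DESeq2 called Mmp2, Mmp15, Adam23, Adamts2, Adamts6 and Adamtsl2 beside the 3 above, with all hearts kept, and 6.72% of the 20747 genes with a p-value. For Timp1 the difference in edgeR was -1.35 (standard error 0.72, adjusted p = 0.337), and for Mmp3 0.93 (standard error 0.79, adjusted p = 0.560). The number of members called ran from 1 to 10 with 1 heart left out, 10 without Myh6-tg replicate 1. It was 1 without each of the 3 EIIa-ctl hearts, EIIa-tg replicate 1, Myh6-tg replicate 2 or Myh6-tg replicate 3. The share of all genes called ran from 1.78% to 10.6%, also highest without Myh6-tg replicate 1. Adam9 was called in all 12 of these fits.

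The control hearts of the models differ in age, line, Cre and oil, which cannot be told apart. In Myh6-ctl against EIIa-ctl hearts 0 of 53 members were called by edgeR, which called 0.0200% of all 14990 genes higher and 0.0133% lower. In the same test 11 members and 1700 of all genes had an unadjusted p under 0.05. DESeq2 called 8 of 61 members and 2.23% of the 19222 genes with a p-value. In edgeR the members with the lowest p were Adam8 (log2 fold change 2.82, standard error 0.49, adjusted p = 0.0927), Mmp19 (1.48, adjusted p = 0.126), Adamts7 (-1.11, adjusted p = 0.126), Adam19 (1.06, adjusted p = 0.126) and Mmp9 (1.82, adjusted p = 0.143). Without Myh6-ctl replicate 1, Adam8 (3.14, adjusted p = 0.0294) and Adamts7 (-1.35, adjusted p = 0.0421) were called, as were 0.639% of all genes. Timp1 had 0.870 to 2.92 CPM in EIIa-ctl and 3.73 to 8.15 CPM in Myh6-ctl hearts and Mmp3 0.808 to 2.87 and 4.56 to 9.77 CPM. Neither pair of control ranges overlapped, although edgeR called neither (1.87, adjusted p = 0.207, and 1.88, adjusted p = 0.192). Both were among the members that DESeq2 called (Timp1 1.88, adjusted p = 0.00907, and Mmp3 1.89, adjusted p = 0.00498).

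Of 45 further genes of the same system, listed by role, 39 were tested in the EIIa model, where 7 were higher and 2 lower, and 40 in the Myh6 model, where 13 were higher and 1 lower. Of all genes tested, 8.65% were higher and 8.30% lower in the EIIa model, and 8.96% and 9.38% in the Myh6 model. Among the genes of proenzyme activation, Plaur, the urokinase receptor, rose in the Myh6 model (2.77, adjusted p = 0.0296), and Serpine2, a protease inhibitor, in the EIIa model (1.47, adjusted p = 0.0168). Of the cysteine and serine proteases, Ctsk, a collagen-degrading cathepsin, rose in the Myh6 model (2.11, adjusted p = 0.00575), Ctss in the EIIa model (1.504, adjusted p = 0.0222), and Htra1 fell in the EIIa (-0.97, adjusted p = 0.0323) and the Myh6 model (-1.04, adjusted p = 0.0202). The substrate genes Fbn2 (2.97, adjusted p = 0.00808) and Col1a1 (2.11, adjusted p = 0.00515) rose in the Myh6 model, with 4 of 6 tested substrates called there and 0 of 6 in the EIIa model. None of the 7 tested regulators of ADAM10 and ADAM17 was called in either model, and the same held for the 3 other inhibitors tested in the EIIa and the 4 tested in the Myh6 model. Of all of these, only Ctsl had a called difference between models (1.18, adjusted p = 0.0192).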

How the data were processed

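RNA of 12 mouse hearts was sequenced, 3 in each of 4 groups. The authors deposited a table of counts, whole numbers of reads per gene that were not normalized, and a table of FPKM values, which the authors scaled by transcript length and library size. The study's methods give GRCm38 as the genome, and the submitters' processing notes name HISAT2 2.0.4, StringTie 2.2.1 and DESeq2. Strand use in counting is not given in the sources used here.

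Genes were kept by filterByExpr and tested with edgeR 4.0.16 (TMM, glmQLFit and glmQLFTest) in R 4.3.3, in each pair of groups, and over all 12 hearts for the difference of the changes. Adjusted p-values cover all genes tested, and the standard error is the log2 fold change divided by the square root of F. CPM and FPKM printed were divided by TMM factors of the 12 hearts. Named were all Timp genes, the 10 members with the highest mean FPKM, and members called, in full from 1 CPM upward; Adam17, Mmp10, Ctsk, the 5 members of lowest p between controls, and genes in a comparison that did not call them were added after their values were seen. The members and lists were chosen with earlier results of these data known. Coordinates are from GENCODE M21 (84 of 84 matched) and promoters from RefSeq (53 of 84). Scripts were tested on simulated data. Nothing states separate litters, so p-values measure the spread between these hearts. Floors of 3 counts cover counting error only.

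The same replicate number marked hearts whose deviations correlated in the Myh6 pair (0.279, 0.179 and 0.184, each heart matching its own number best), so the fit with the replicate number as a block is given beside Myh6 results whose call it changes. Alternatives used DESeq2 1.42.0, limma 3.58.1 on log2(FPKM + 1) and log2(FPKM + 0.1), other filters and scalings, mt- genes removed, and each heart left out.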

Additional observations from a re-analysis of the deposited data

Results flagged for a closer look

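The changes in the 2 models differed by a test of the difference itself for 3 members. Subtracting the EIIa change from the Myh6 change gave 1.37 on the log2 scale for Adam9, 1.196 for Adamts5 and 2.83 for Adamts8, with adjusted p-values of 0.0112, 0.0429 and 0.0267 in edgeR's quasi-likelihood test. With the replicates as a block Adamts8 was not called (3.01, adjusted p = 0.0574). The 2 models differ in day, driver, tamoxifen and cells with Cre, and the Myh6 groups also differ in Esr1. Which of these goes with the difference cannot be told apart. Adam9 was called in 23 of 24 alternatives, Adamts8 in 15 of 24 and Adamts5 in 13 of 24.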

How the results depend on the processing

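Of 1639 values for named genes under the alternatives, 1316 kept direction and side of the threshold, 222 lost the call, 68 gained one and 33 changed sign. The members called numbered 15 in EIIa-tg against EIIa-ctl, 17 in Myh6-tg against Myh6-ctl, 0 between controls and 3 for the difference. With 1 heart left out they ran from 0 to 23, from 8 to 19, from 0 to 2 and from 1 to 10. In the same fits the share of all genes called ran from 0% to 26.6%, 5.01% to 26.7%, 0.0195% to 0.639% and 1.78% to 10.6%. In the EIIa pair, 4 members and 1.43% of all genes were called with all 12 hearts in one fit. Limma on log2(FPKM + 0.1) called 8 members and 8% of all genes. No member was called with limma on log2(FPKM + 1) (0.00513% of all genes), at the study's threshold in edgeR (0%) or with the replicate block (0.00671%). Under that block the 15 had adjusted p-values from 0.0628 to 0.103. In the EIIa pair only the hearts numbered 1, which had the Y-linked counts, matched their own number best (correlations of 0.0684, -0.0837 and -0.0827). The study's threshold gave 7 in the Myh6 pair (3.97% of all genes) and 0 for the difference (0.622%) with edgeR. With DESeq2, an alternative chosen after seeing the data, it gave 8 in the EIIa pair, 15 in the Myh6 pair, 8 between controls and 5 for the difference. The shares of all genes with a p-value were 4.29%, 10.7%, 0.916% and 2.97%. At an adjusted p under 0.05 DESeq2 called 8 between controls and 9 for the difference (2.23% and 6.72% of all genes). Fits without a filter called 1 and 5 (0.338% and 2.81%), while bias-adjusted quasi-likelihood called 5 for the difference (4.49%). With the replicate block 19 were called in the Myh6 pair (20.9%) and 4 for the difference (3.17%). The causes were not tested.

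Signs changed only for values that were not called in the reported test, here on the log2 scale, and of the changed values only Mmp12 without Myh6-tg replicate 1 was itself called (-2.94, adjusted p = 0.00756). Adam15 in the EIIa pair was 0.0035 with at least 1 CPM in 3 hearts, 0.00088 with all 12 hearts, 0.00046 with the replicate block, 0.14 with limma under each pseudocount and 0.14 under the FPKM filter. Mmp12 in the Myh6 pair was -1.56 with the replicate block and -0.57 with limma on log2(FPKM + 0.1), and the difference for Adam8 was -0.83 with the replicate block. With 1 heart left out the EIIa pair gave -0.079 to 0.077 for Adam15, -0.040 to 0.13 for Adamts5, -0.20 to 0.22 for Adamts6, -0.17 to 0.44 for Adamtsl2 and -0.10 to 0.44 for Timp4. The Myh6 pair gave -2.94 to 1.05 for Mmp12, -0.046 to 0.67 for Timp3 and -0.087 to 0.26 for Timp4, and the difference -2.02 to 0.67 for Adam8, -0.044 to 0.18 for Adam22 and -0.70 to 1.35 for Mmp13. At 3 counts, a level under 0.0568 to 0.0815 CPM could not be told from 0.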
